A study of Mus musculus with 13 samples.

Results

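The 39 genes described here act in mitosis and the G2 phase before it, and were followed in Neuro2a cells that had lived through a failed cryostorage. They were picked by name with earlier results of these data known, from 34857 gene identifiers in the deposited tables, and all 39 were found and passed the filter on low values at both passages. Neuro2a is a mouse neuroblastoma line with neuron-like properties that divides quickly in culture. The experimental cells were frozen in 10% DMSO, a cryoprotectant, and their liquid nitrogen was then lost over 10 h. They spent 24 h at 4 °C and another 72 h at -80 °C, and thawing was at 37 °C. The control cells, frozen in the same way, were left in normal storage until they were plated. Poly(A) RNA was sequenced at passage 1, shortly after the stressed cells divided again, from 4 experimental and 3 control libraries, and at passage 6, when the cells looked normal, from 3 experimental and 3 control libraries. All libraries come from this 1 line, and the labels do not say whether replicates are separate vials, flasks or RNA aliquots, so the p-values measure the spread between these libraries, which may be technical. The question asked of each passage was whether the level of these genes in the experimental cells differed from that in time-matched controls.

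Entry into mitosis is driven by the kinase CDK1 bound to cyclin A or cyclin B, which the CDC25 phosphatases switch on. The Polo-like and Aurora kinases, the kinesin motors and the kinetochore proteins then build the spindle and attach chromosomes to it, the spindle checkpoint delays separation until the attachments are made, and the ubiquitin ligase APC/C ends the process by marking securin and cyclin B for destruction. Most of these genes are transcribed late in the cycle, through NF-Y at CCAAT boxes and the MuvB complex with B-MYB and FOXM1 at the cell cycle genes homology region (CHR), while the DREAM complex keeps them off in resting cells. Their summed RNA therefore follows how many cells of a dividing culture are near mitosis, and in bulk RNA a change in the share of such cells and a change in RNA per cell cannot be told apart.

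Values are FPKM, fragment counts scaled by transcript length and library size, so the number of reads behind a value is unknown and precision was judged from the spread between libraries. FPKM summed to 315034 to 329736 in the experimental and 331495 to 336105 in the control libraries at passage 1, and to 334839 to 354288 and 348286 to 349541 at passage 6. Of 18 neuroblastoma and neuronal markers, 15 reached 1 FPKM in every passage 1 library, among them the transcription factors Phox2a and Hand2, whereas the neurofilament genes Nefl and Nefm were at or near 0 outside passage 6 experimental libraries 2 and 3. Markers of other tissues were present and differed between libraries: 20 colon epithelium markers summed to 215, 192, 8.25 and 92.5 FPKM in the passage 1 experimental libraries, against 516, 226 and 244 FPKM in the controls, and to 118, 8.19 and 9.11 FPKM against 125, 247 and 288 FPKM at passage 6. Of those 20, 2 reached 1 FPKM in passage 1 experimental library 3 and 3 did in passage 6 experimental libraries 2 and 3, against 17 to 20 in every other library. The 12 liver markers, such as Alb, summed to under 1 FPKM in 11 libraries; in the other 2, passage 6 experimental libraries 2 and 3, their sums were 219 and 176 FPKM and 11 of the 12 reached 1 FPKM. Brain markers summed to 104 and 84.2 FPKM and fibroblast markers to 149.9 and 133 FPKM in these 2 libraries, against 24.2 to 32.4 FPKM and 1.12 to 12.4 FPKM in the other 11, while blood markers summed to 0.0989 to 24.7 FPKM over all 13. The 12 cartilage markers summed to 8.69 FPKM in passage 1 experimental library 4 and 7.21 FPKM in passage 1 control 1, against 32.3 to 50.9 FPKM in the other passage 1 libraries. Coordinates given with gene identifiers are those of GENCODE M21 on GRCm38. The part of the other tissues' transcripts in the results was not tested, beyond the fits without these libraries given beside them.

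Letters of the elements named above were searched in RefSeq promoter windows of GRCm38.p6, which run from 250 bases before to 50 bases after each annotated start. Windows were matched for 33 of the 39 genes (35 windows), and none for Ccna2, Cdc25c, Foxm1, Aurkb, Kif20a and Tpx2. In 30 of the 35 windows, bases just after the start were found in a GENCODE transcript of the gene. They were not found for Aurka, Kif11, Kif23, Kif2c and Mad2l1, so the starts of these genes are less certain. The CHR letters TTTGAA or TTCGAA, on either strand, lay within 50 bases of the start in 23 of the 33 genes (69.7%), against 6.12% of 27025 genes with a window. The NF-Y letters CCAAT, on either strand, lay in 24 of the 33 (72.7%), against 41.1% of all genes, and at least 2 of them in 15 (45.5%), against 13.3%. Both elements were in the windows of 22 of the 33 genes (66.7%), against 8.61% of all, and in no member window did their letters overlap. A match describes the letters only, and was not tested as a binding site.

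The stretches of 110 bases are shown because they hold both kinds of letters, as most of these promoters do, in genes that rose at passage 1 (Ube2c, Top2a and Prc1). Cdk1, which did not pass the test at passage 1, and Cdc20, which was called in no comparison, hold the same letters, while Ccnb1, with the largest rise, has CCAAT letters alone. Each reads 5′ to 3′ along the gene and ends at the base before the RefSeq start, except in Ccnb1, where it ends 55 bases and in Ube2c 2 bases before it, and capitals mark the CCAAT or ATTGG and the TTTGAA or TTCAAA letters.
Ccnb1, chr13:100786541-100786650 on the minus strand: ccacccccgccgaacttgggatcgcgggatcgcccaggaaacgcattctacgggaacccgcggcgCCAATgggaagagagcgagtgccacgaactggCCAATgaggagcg
Ube2c, chr2:164769818-164769927 on the plus strand: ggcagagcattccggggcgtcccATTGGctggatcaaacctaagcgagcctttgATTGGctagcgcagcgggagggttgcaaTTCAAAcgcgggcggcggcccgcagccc
Top2a, chr11:99024190-99024299 on the minus strand: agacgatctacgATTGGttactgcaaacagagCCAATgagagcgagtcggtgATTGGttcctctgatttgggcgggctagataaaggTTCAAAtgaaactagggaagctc
Prc1, chr7:80294366-80294475 on the plus strand: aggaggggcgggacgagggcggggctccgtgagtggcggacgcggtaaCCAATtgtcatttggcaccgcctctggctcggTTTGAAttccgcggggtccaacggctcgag
Cdk1, chr10:69352913-69353022 on the minus strand: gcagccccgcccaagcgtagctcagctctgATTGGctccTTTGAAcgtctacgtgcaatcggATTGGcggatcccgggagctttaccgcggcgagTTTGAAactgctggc
Cdc20, chr4:118437344-118437453 on the minus strand: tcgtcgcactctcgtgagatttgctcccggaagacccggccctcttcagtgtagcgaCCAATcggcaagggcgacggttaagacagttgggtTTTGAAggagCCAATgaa

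In Ube2c, Top2a, Prc1 (at 1 of its 2 starts) and Cdc20 the CHR letters begin 29, 23, 30 and 18 bases before the start, and in Cdk1 they begin 71 and 15 bases before it. Ccnb1 has its CCAAT letters 99 and 67 bases before the start and no match to either CHR spelling in its window. Counted by window, 8 of the matches to the CHR letters within 50 bases of the start lay before it and 18 after it. Ect2 and Prc1 have 2 overlapping windows each, so the same site is counted in both windows of each gene.

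**Figure D1:**
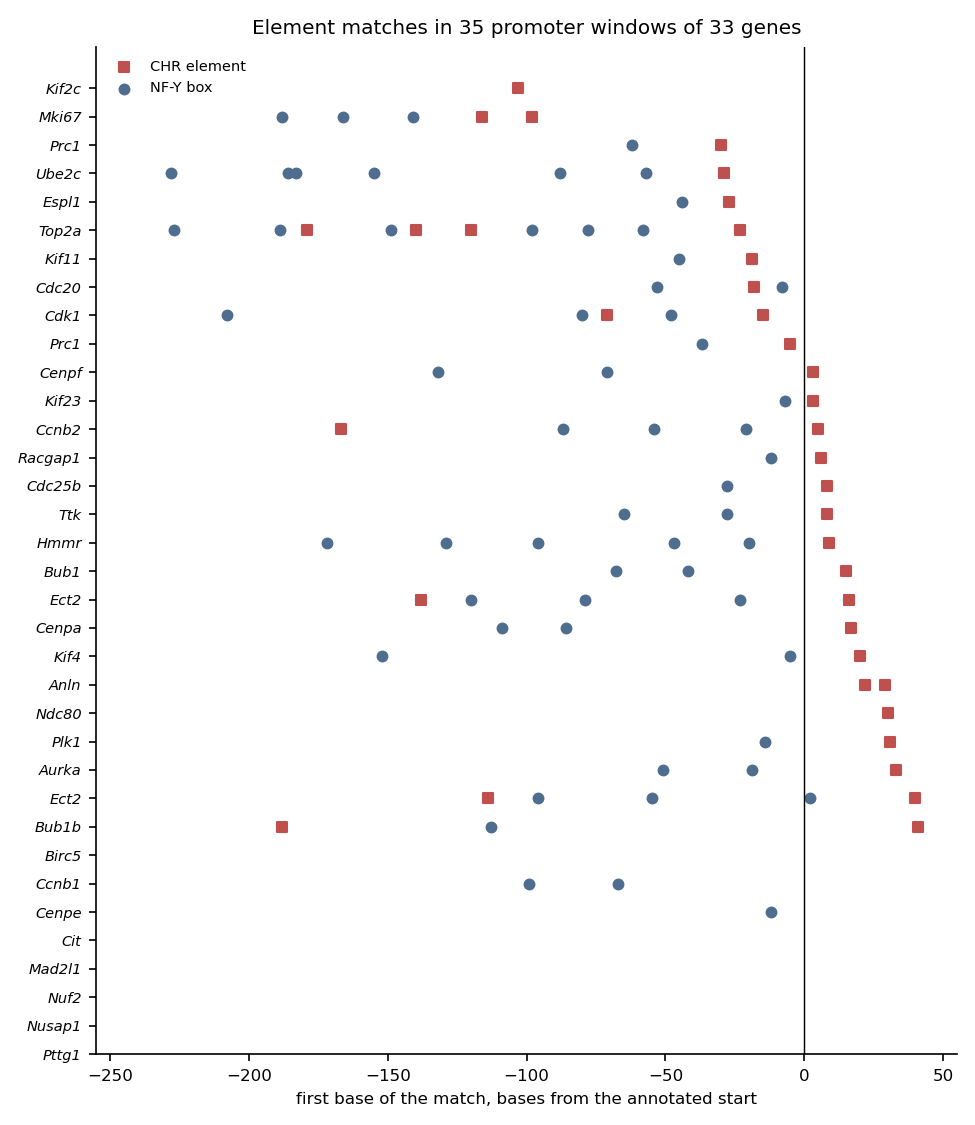
Positions of the CHR letters (red squares) and the CCAAT letters (blue circles) in 35 promoter windows of 33 genes, on a horizontal axis in bases from the RefSeq start, with 1 row per window and genes with 2 windows shown in 2 rows. CHR letters gather near the start in most rows, CCAAT letters lie mostly before it, and the lowest rows hold genes without CHR letters, among them Ccnb1.

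The members differed widely in level. Mean FPKM ran from 2.84 to 97.8 in the experimental and from 2.68 to 93.8 in the control libraries at passage 1, and from 2.99 to 111 and 3.46 to 124 at passage 6. Racgap1, the GTPase-activating subunit of the centralspindlin complex, was the highest of the 39 in the passage 1 controls, followed by Top2a (topoisomerase II alpha, which untangles sister chromatids) and Ccnb1 (cyclin B1). In the passage 1 experimental libraries the order of these 3 was Ccnb1, Racgap1 and Top2a. The 39 genes together came to 1165, 1218, 1035 and 1135 FPKM in the passage 1 experimental libraries, against 983, 990 and 981 FPKM in the controls, so that every experimental library lay above every control. At passage 6 they came to 804, 759 and 788 FPKM in the experimental libraries, against 830, 824 and 829 FPKM in the controls, and every experimental library lay below every control. The FPKM totals over all genes were also below those of the controls (348286 to 349541) in experimental libraries 2 and 3 (335920 and 334839). In experimental library 1 the total was above them (354288). The sums are given as deposited, not rescaled.

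At passage 1 the mitosis genes were more often higher than lower in the cells recovering from the failed storage. Of the 39, 18 rose and 0 fell past an adjusted p of 0.05 (limma with a trend, on log2(FPKM + 1), Benjamini-Hochberg adjusted over 12469 tested genes), where 30.4% of all tested genes were called, 11.5% higher and 18.9% lower. At an unadjusted p of 0.05 these counts were 24 and 0 by the same test, where 5363 of the 12469 tested genes passed in either direction. The 18 were Ccnb1, Cdc25b, Plk1, Bub1, Bub1b, Cenpf, Kif11, Kif4, Tpx2, Nusap1, Kif23, Ect2, Anln, Prc1, Ube2c, Espl1, Pttg1 and Top2a, and the rises were modest, from 1.13- to 1.38-fold. The fold is that of FPKM + 1, which understates the change of low genes. The median log2 change was 0.19 over the 39 and -0.05 over all tested genes, and 35 of the 39 were positive, against 40.1% of all genes. In 21 of the 39 every experimental library was above every control (15.8% of all genes), and in 1, Aurkb, every one was below (26.9%). The 21 genes that were not called had log2 changes from -0.11 to 0.25.

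The number of calls depended on single libraries. Of the 18, 11 were called whichever 1 library was left out (Ccnb1, Plk1, Bub1, Bub1b, Cenpf, Kif11, Kif4, Tpx2, Kif23, Ect2 and Anln), and the count was 11 without control 1, 11 without control 2 and 29 without experimental library 3. Over all 12469 tested genes, 2175 were called without control 1 and 2173 without control 2, against 3792 with all libraries. With each library left out in turn, the number over all genes ran from 2173 to 4058. Without both libraries low in cartilage markers, control 1 and experimental library 4, 1029 of all tested genes were called. Of the 39, 2 were called in that fit (Ccnb1 and Ect2), while the median log2 change of the 39 was 0.19. All 18 were also called with FPKM rescaled to equal totals, by median of ratios or by quantiles, where 24, 24 and 22 of the 39 were called, all higher. Of all 12469 tested genes, 1723, 1876 and 1825 were called higher under these scalings, against 1434 as deposited. Among calls over all genes the share that was higher was 37.8% as deposited and 48.8%, 52.1% and 50.2% under these scalings.

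**Figure D2:**
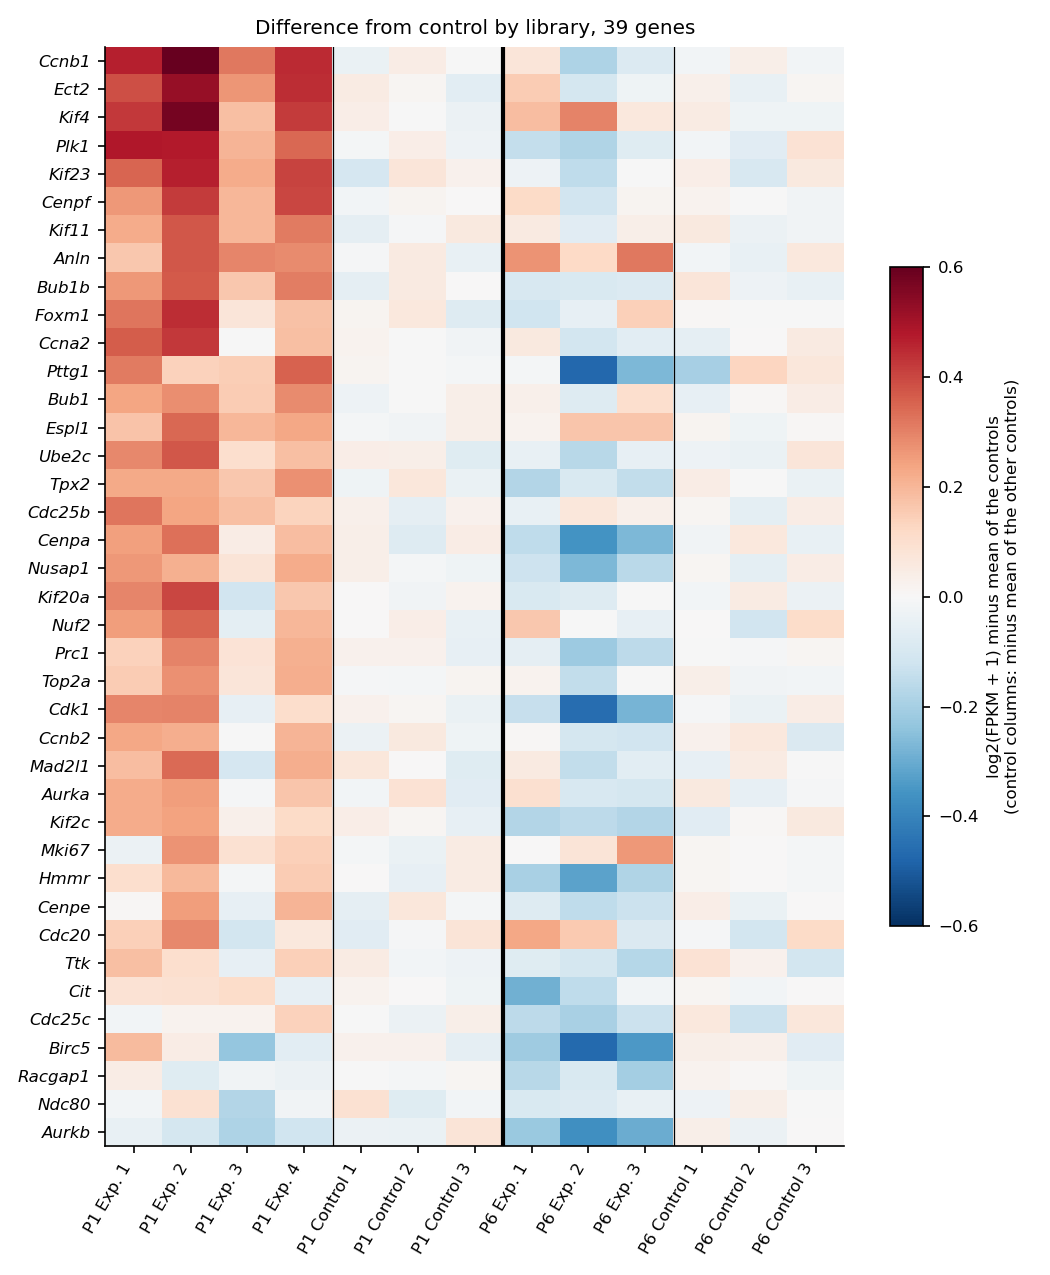
Difference of each of the 39 genes (rows, ordered by the change at passage 1) from the mean of the controls of its passage, in log2(FPKM + 1) units, in each of the 13 libraries (columns, experimental left of control within a passage, P1 and P6 for the passages); a control is set against the other controls. Red is higher and blue lower; the upper rows are red in all 4 passage 1 experimental libraries, palest in library 3, and most rows are pale or blue in the passage 6 experimental libraries.

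Among CDK1 and its cyclins, 1 of 4 genes rose at passage 1. This count and those of the role groups below stand beside 11.5% of all tested genes called higher, and no role group was tested as a set. Ccnb1 (ENSMUSG00000041431, chr13:100778650-100786570) encodes cyclin B1, the partner that carries CDK1 into mitosis. It had 97.8, 109, 88.0 and 96.5 FPKM in the experimental libraries, against 69.1, 71.9 and 70.3 FPKM in the controls. The lowest experimental library was above the highest control, and the level was 1.38-fold higher (log2 change 0.46 ± 0.07 (SE), limma adjusted p = 0.00241), the largest rise of the 39. Cdk1 (ENSMUSG00000019942, chr10:69335146-69352938) encodes the kinase itself. It had 67.7, 67.9, 53.2 and 59.3 FPKM in the experimental libraries, against 55.7, 55.2 and 54.0 FPKM in the controls. Experimental library 3 lay below all 3 controls and the other 3 experimental libraries above them, and the gene did not pass the test (log2 change 0.16 ± 0.09 (SE), limma adjusted p = 0.181). Ccna2 (cyclin A2) averaged 57.1 ± 7.60 FPKM in experimental libraries and 47.8 ± 0.492 FPKM in controls (SD, n = 4 and 3), and Ccnb2 (cyclin B2) 29.7 ± 2.24 FPKM in experimental libraries and 26.3 ± 0.675 FPKM in controls, with experimental library 3 within the control range in each. Neither passed the test (limma adjusted p = 0.0928 and 0.0889). Annotated pseudogene copies of Ccnb1 and Ccnb2 reached at most 4.53 and 1.10 FPKM in any library.

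Of the phosphatases and the transcription factor above them, Cdc25b rose and 2 did not pass the test. Cdc25b averaged 21.0 ± 1.26 FPKM in experimental libraries and 17.9 ± 0.413 FPKM in controls (log2 change 0.22 ± 0.06 (SE), limma adjusted p = 0.0202), and every experimental library was above every control. Foxm1 (ENSMUSG00000001517, chr6:128362967-128376146) encodes a transcription factor of late cell cycle genes. It had 23.9, 26.0, 19.9 and 21.5 FPKM in the experimental libraries, against 19.0, 19.5 and 18.2 FPKM in the controls. All 4 experimental libraries were above the controls and the adjusted p was 0.0565 (limma, log2 change 0.25). Cdc25c, at 3.83 against 3.69 FPKM, was the lowest of the 3 and did not pass the test.

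Of the mitotic kinases, 1 of 3 rose. Plk1 (ENSMUSG00000030867, chr7:122159439-122169873) encodes the Polo-like kinase needed for spindle assembly and mitotic entry. It had 54.0, 53.9, 44.4 and 49.1 FPKM in the experimental libraries, against 38.3, 39.2 and 37.9 FPKM in the controls. The groups did not overlap, and the level was 1.30-fold higher (log2 change 0.38 ± 0.07 (SE), limma adjusted p = 0.00682). Aurkb (ENSMUSG00000020897, chr11:69045647-69051664) encodes the kinase of the chromosomal passenger complex that corrects chromosome attachment. It had 18.3, 17.5, 16.5 and 17.3 FPKM in the experimental libraries, against 18.5, 18.5 and 19.6 FPKM in the controls. Here every experimental library was below every control, by an amount that did not pass the test (log2 change -0.11 ± 0.05 (SE), limma adjusted p = 0.118). Aurka, the Aurora kinase of centrosomes and spindle poles, averaged 29.5 ± 2.37 FPKM in experimental libraries and 26.3 ± 0.994 FPKM in controls and did not pass the test (limma adjusted p = 0.115).

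In the spindle checkpoint, 2 of 4 genes rose. Bub1b (ENSMUSG00000040084, chr2:118598211-118641591) encodes the checkpoint protein BUBR1. It had 33.7, 36.5, 31.5 and 34.9 FPKM in the experimental libraries, against 27.3, 28.7 and 28.1 FPKM in the controls. All experimental libraries were above the controls, 1.21-fold on average (log2 change 0.27 ± 0.06 (SE), limma adjusted p = 0.00920). Bub1, the kinase that recruits it, averaged 22.6 ± 0.981 FPKM in experimental libraries and 19.0 ± 0.309 FPKM in controls (log2 change 0.24 ± 0.05 (SE), limma adjusted p = 0.00845). Ttk (the kinase MPS1) and Mad2l1 (the APC/C inhibitor MAD2) did not pass the test, at 8.02 against 7.44 FPKM and 12.8 against 11.3 FPKM.

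At the centromere and kinetochore, 1 of 6 genes rose, near the share of all tested genes called higher (11.5%). Cenpf (ENSMUSG00000026605, chr1:189640606-189688086) encodes a large kinetochore protein. It had 9.75, 11.0, 9.33 and 10.8 FPKM in the experimental libraries, against 7.91, 8.04 and 7.995 FPKM in the controls. The 3 controls lay within a narrow range and all experimental libraries above it (log2 change 0.32 ± 0.06 (SE), limma adjusted p = 0.00829). Cenpa (ENSMUSG00000029177, chr5:30666777-30674830) encodes the histone H3 variant that marks the centromere. It had 11.7, 12.4, 10.0 and 11.1 FPKM in the experimental libraries, against 9.86, 9.31 and 9.90 FPKM in the controls; the groups did not overlap, and the adjusted p was 0.0649 (limma, log2 change 0.20). Birc5 (ENSMUSG00000017716, chr11:117849251-117855743) encodes survivin, a subunit of the Aurora B complex. It had 31.6, 28.5, 23.4 and 26.4 FPKM in the experimental libraries, against 28.0, 28.0 and 26.9 FPKM in the controls. Its experimental libraries lay on both sides of the controls (log2 change -0.02 ± 0.09 (SE), limma adjusted p = 0.907). Cenpe (a kinetochore motor), Ndc80 and Nuf2 (a pair of proteins that hold microtubules at the kinetochore) had log2 changes of 0.10, -0.03 and 0.19, none past the test. The signs for Ndc80 and Birc5, and that for Racgap1, turn under at least 1 of the other scalings.

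Of the spindle motors and spindle proteins, 4 of 6 rose. Kif4 (ENSMUSG00000034311, chrX:100625737-100727214) encodes a chromosome-bound kinesin of the midzone. It had 14.1, 15.7, 11.8 and 14.01 FPKM in the experimental libraries, against 10.4, 10.2 and 10.1 FPKM in the controls. The groups did not overlap, and experimental library 2 was the highest and 3 the lowest of the experimental libraries (1.32-fold, log2 change 0.40 ± 0.09 (SE), limma adjusted p = 0.0106). Tpx2 (ENSMUSG00000027469, chr2:152847964-152895321) encodes the activator of Aurora A at the spindle. It had 38.1, 38.0, 36.2 and 39.3 FPKM in the experimental libraries, against 31.9, 33.4 and 31.7 FPKM in the controls. All experimental libraries were higher, and close to each other (log2 change 0.22 ± 0.04 (SE), limma adjusted p = 0.00854). Kif11 (the motor Eg5, which pushes spindle poles apart) averaged 18.7 ± 1.11 FPKM in experimental libraries and 15.2 ± 0.412 FPKM in controls (log2 change 0.28 ± 0.06 (SE), limma adjusted p = 0.00815), and Nusap1, a microtubule-bundling protein, averaged 16.9 ± 0.985 FPKM in experimental libraries and 14.7 ± 0.227 FPKM in controls (log2 change 0.19 ± 0.05 (SE), limma adjusted p = 0.0302). Kif2c (the microtubule-depolymerizing kinesin MCAK) had no overlap between the groups but did not pass the test (adjusted p = 0.0939, limma). Hmmr (ENSMUSG00000020330, chr11:40701395-40733422) encodes a spindle protein and hyaluronan receptor. It had 17.4, 18.7, 16.1 and 18.1 FPKM in the experimental libraries, against 16.2, 15.8 and 16.6 FPKM in the controls, with experimental library 3 among the controls and the other 3 above them (limma adjusted p = 0.188).

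In the midzone and cytokinesis group, 4 of 7 rose. Ect2 (ENSMUSG00000027699, chr3:27097222-27153878) encodes the exchange factor that activates RhoA at the cleavage plane. It had 23.4, 25.8, 21.4 and 24.3 FPKM in the experimental libraries, against 18.1, 17.8 and 17.1 FPKM in the controls. The groups did not overlap, and the level was 1.32-fold higher (log2 change 0.40 ± 0.06 (SE), limma adjusted p = 0.00334). Kif23 (ENSMUSG00000032254, chr9:61915905-61946774) encodes the kinesin of centralspindlin. It had 12.8, 13.99, 11.7 and 13.4 FPKM in the experimental libraries, against 9.37, 10.2 and 9.98 FPKM in the controls. It too had all experimental libraries above the controls (1.28-fold, log2 change 0.36 ± 0.07 (SE), limma adjusted p = 0.00598). Anln (ENSMUSG00000036777, chr9:22332012-22389188) encodes the actin-ring scaffold anillin. It had 11.1, 12.9, 12.2 and 12.1 FPKM in the experimental libraries, against 9.72, 10.0 and 9.54 FPKM in the controls. The lowest experimental library, library 1, was above the highest control (log2 change 0.28 ± 0.06 (SE), limma adjusted p = 0.00955). Prc1, the midzone bundling protein, averaged 21.1 ± 1.45 FPKM in experimental libraries and 18.5 ± 0.383 FPKM in controls (log2 change 0.18 ± 0.06 (SE), limma adjusted p = 0.0475). Racgap1 (ENSMUSG00000023015, chr15:99620496-99651656) encodes the partner of Kif23 in centralspindlin. It had 96.9, 89.2, 92.3 and 91.6 FPKM in the experimental libraries, against 93.6, 93.3 and 94.3 FPKM in the controls. Experimental library 1 lay above the controls and the other 3 below, and the gene did not pass the test (log2 change -0.02 ± 0.04 (SE), limma adjusted p = 0.742). Kif20a, a kinesin of the central spindle, and Cit (citron kinase, of the late midbody) were at 27.0 against 23.4 FPKM and 2.84 against 2.68 FPKM and did not pass the test.

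Of the genes that carry out the exit from mitosis, 3 of 4 rose. Ube2c (ENSMUSG00000001403, chr2:164769898-164778822) encodes the ubiquitin-conjugating enzyme of the APC/C. It had 62.4, 66.2, 54.7 and 58.0 FPKM in the experimental libraries, against 52.0, 51.8 and 49.2 FPKM in the controls. The groups did not overlap, with experimental library 3 nearest to the controls (log2 change 0.24 ± 0.07 (SE), limma adjusted p = 0.0323). Pttg1 (ENSMUSG00000020415, chr11:43420250-43426251) encodes securin, the inhibitor of separase. It had 28.7, 25.4, 25.5 and 29.6 FPKM in the experimental libraries, against 23.1, 22.9 and 22.8 FPKM in the controls. All experimental libraries were higher than the controls, which lay close together (log2 change 0.24 ± 0.06 (SE), limma adjusted p = 0.0242). Espl1, separase itself, averaged 17.1 ± 0.978 FPKM in experimental libraries and 14.3 ± 0.208 FPKM in controls (log2 change 0.24 ± 0.05 (SE), limma adjusted p = 0.0127), while Cdc20, the APC/C activator, averaged 38.8 ± 4.54 FPKM in experimental libraries and 36.0 ± 1.24 FPKM in controls and did not pass the test (limma adjusted p = 0.429).

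The 2 chromosome genes are also the usual proliferation markers. Top2a (ENSMUSG00000020914, chr11:98992943-99024189) had 87.0, 94.7, 82.2 and 91.2 FPKM in the experimental libraries, against 78.1, 77.9 and 78.8 FPKM in the controls. All experimental libraries were above the controls (log2 change 0.18 ± 0.05 (SE), limma adjusted p = 0.0378). Mki67 (ENSMUSG00000031004, chr7:135689784-135716361) encodes Ki-67, the coat protein of mitotic chromosomes. It had 41.4, 51.5, 45.4 and 47.1 FPKM in the experimental libraries, against 42.3, 41.8 and 43.5 FPKM in the controls. Experimental library 1 was the lowest of all 7 libraries and the other 3 were above the controls, and the gene did not pass the test (log2 change 0.12 ± 0.07 (SE), limma adjusted p = 0.235).

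**Figure D3:**
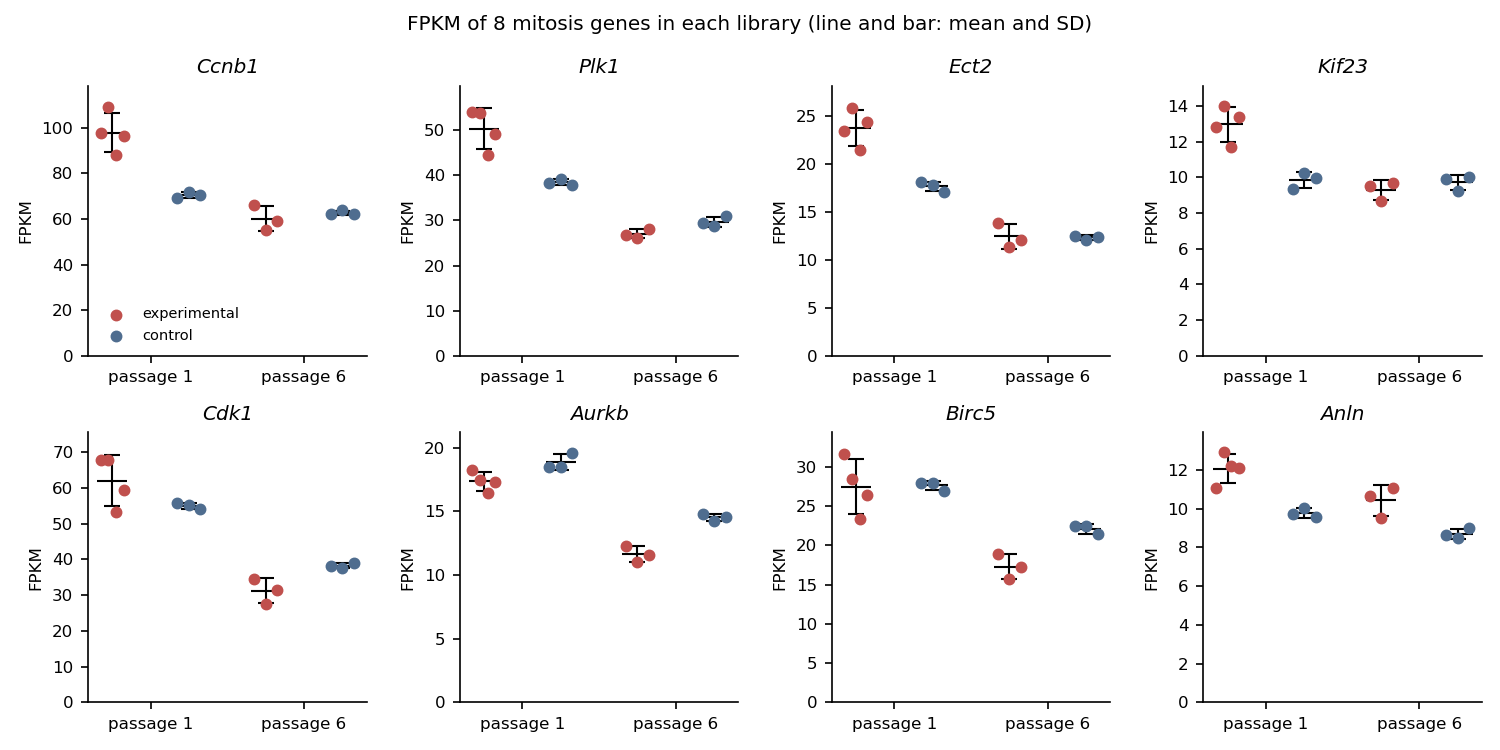
FPKM of 8 of the genes in each library, experimental (red) left of control (blue) at passages 1 and 6, with the group mean (line) and SD (bar); vertical axes start at 0 and differ between panels. Ccnb1, Plk1, Ect2 and Kif23 are higher in every passage 1 experimental library than in its controls, Cdk1, Aurkb and Birc5 are lower in every passage 6 experimental library, and Anln is higher at both passages.

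By passage 6 the rise was not seen, and a few of the genes were lower. Of the 39, 6 fell (Cdk1, Aurkb, Cenpa, Birc5, Kif2c and Hmmr) and 1 rose (Anln), where 19.8% of 12458 tested genes were called, 10.8% lower and 8.98% higher. The share of members called was close to that of all genes. The median log2 change was -0.07 over the 39 and -0.04 over all tested genes. Of the 39, 28 were negative and 11 positive, where 42.8% of all tested genes were positive. Every experimental library was below every control in 17 of the 39 (24.3% of all genes), and above in 3 (Anln, Kif4 and Espl1; 17.4% of all genes). Of the 18 genes that had risen at passage 1, 1 (Anln) was called higher and 0 lower.

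Survivin and its kinase partner fell most. Birc5 had 18.9, 15.7 and 17.2 FPKM in the experimental libraries, against 22.5, 22.4 and 21.4 FPKM in the controls, and all experimental libraries were below the controls (log2 change -0.34 ± 0.07 (SE), limma adjusted p = 0.0179). Aurkb had 12.3, 11.0 and 11.6 FPKM in the experimental libraries, against 14.8, 14.3 and 14.5 FPKM in the controls, again without overlap (log2 change -0.30 ± 0.05 (SE), limma adjusted p = 0.0127). Cdk1 had 34.6, 27.6 and 31.4 FPKM in the experimental libraries, against 38.1, 37.6 and 39.02 FPKM in the controls. Experimental library 2 was the lowest in each of these 3 genes, and Cdk1 was 0.818 of its control level on the FPKM + 1 scale (log2 change -0.29 ± 0.08 (SE), limma adjusted p = 0.0437). Cenpa had 8.30, 7.05 and 7.57 FPKM in the experimental libraries, against 9.24, 9.64 and 9.11 FPKM in the controls, all below the controls (log2 change -0.26 ± 0.07 (SE), limma adjusted p = 0.0344). Hmmr had 16.5, 15.1 and 16.7 FPKM in the experimental libraries, against 19.2, 19.1 and 18.9 FPKM in the controls, where the controls lay within a narrow range and the experimental libraries below it (log2 change -0.23 ± 0.05 (SE), limma adjusted p = 0.0261). Kif2c averaged 9.60 ± 0.0681 FPKM in experimental libraries and 10.9 ± 0.346 FPKM in controls (SD, n = 3 each; log2 change -0.17 ± 0.05 (SE), limma adjusted p = 0.0482).

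Of the 6 genes that had risen most at passage 1, 0 passed the test at passage 6 by limma. Ccnb1 had 66.1, 55.2 and 59.2 FPKM in the experimental libraries, against 62.3, 63.8 and 62.3 FPKM in the controls, with experimental library 1 above, and 2 and 3 below, all controls (limma adjusted p = 0.530). Ect2 had 13.9, 11.4 and 12.1 FPKM in the experimental libraries, against 12.5, 12.1 and 12.4 FPKM in the controls, on both sides of the controls (adjusted p = 0.962, limma). Plk1 had 26.8, 26.1 and 28.2 FPKM in the experimental libraries, against 29.5, 28.8 and 30.9 FPKM in the controls, all below the controls by an amount that did not pass the test (log2 change -0.13 ± 0.05 (SE), limma adjusted p = 0.114). Kif23 had 9.496, 8.65 and 9.70 FPKM in the experimental libraries, against 9.91, 9.25 and 10.0 FPKM in the controls, and Cenpf 8.08, 6.76 and 7.498 FPKM in the experimental libraries, against 7.48, 7.38 and 7.32 FPKM in the controls, and in both genes the groups overlapped. Kif4 had 9.11, 9.93 and 8.30 FPKM in the experimental libraries, against 8.10, 7.78 and 7.79 FPKM in the controls, all above the controls but not past the test (log2 change 0.18 ± 0.07 (SE), limma adjusted p = 0.104). Anln, the gene called higher at both passages, had 10.7, 9.52 and 11.1 FPKM in the experimental libraries, against 8.62, 8.504 and 8.98 FPKM in the controls (log2 change 0.23 ± 0.07 (SE), limma adjusted p = 0.0452).

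The other genes followed in every library did not pass the test at passage 6. Racgap1 had 110, 116 and 107 FPKM in the experimental libraries, against 125, 124 and 122 FPKM in the controls, and Bub1b had 18.9, 19.0 and 19.1 FPKM in the experimental libraries, against 21.0, 20.02 and 19.9 FPKM in the controls, all below the controls (limma adjusted p = 0.0564 and 0.196). Tpx2 had 18.7, 19.8 and 19.0 FPKM in the experimental libraries, against 21.6, 21.1 and 20.8 FPKM in the controls, and Ube2c 26.2, 24.0 and 26.1 FPKM in the experimental libraries, against 26.7, 26.5 and 28.0 FPKM in the controls, again below the controls in each library (limma adjusted p = 0.0817 and 0.279). In the next 4 genes the groups overlapped. Pttg1 had 14.3, 10.1 and 11.8 FPKM in the experimental libraries, against 13.1, 15.4 and 14.9 FPKM in the controls (log2 change -0.25 ± 0.12 (SE), limma adjusted p = 0.176), with experimental libraries 2 and 3 below the controls. Top2a had 64.4, 57.2 and 63.4 FPKM in the experimental libraries, against 64.5, 62.9 and 62.9 FPKM in the controls, with library 2 below the controls. Mki67 had 54.0, 56.9 and 64.7 FPKM in the experimental libraries, against 54.2, 53.9 and 53.6 FPKM in the controls, with libraries 2 and 3 above the controls. Foxm1 had 17.9, 18.9 and 21.8 FPKM in the experimental libraries, against 19.6, 19.6 and 19.6 FPKM in the controls, with library 3 above and libraries 1 and 2 below the controls, and the sign of its change turns under at least 1 of the other scalings.

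None of the 7 passage 6 calls held whichever library was left out. Without control 1, 2 or 3 in turn 0 of the 39 were called by limma, where 836, 723 and 777 of all tested genes were. At an unadjusted p of 0.05, 1 gene was higher in each of these runs and 6, 9 and 7 lower. The share of all genes passing in these runs is not given here. With all passage 6 libraries 2 were higher and 13 lower at this level by limma, near the share of all genes (4540 of 12458 in either direction). Without experimental library 3, 1609 of 12458 tested genes were called, and 2 of the 39. Without experimental library 1, which had the smallest median difference of the members, 4296 of 12458 were called, and 11 of the 39. With experimental libraries 2 and 3 left out, which carry the liver markers, 6 were called, 5 lower and 1 higher, from the 1 remaining experimental library, which is then assumed to vary as the controls do. Aurkb, Cenpa, Birc5, Hmmr and Anln kept their calls under each of the 3 scalings. With median-of-ratios scaling 55.6% of all calls at passage 6 were higher, against 45.5% as deposited.

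The change was lower at passage 6 than at passage 1 in nearly all of the genes. The difference itself, the passage 6 change minus the passage 1 change, was tested over all 13 libraries. Of the 39, 16 were lower and 0 higher, where 14.7% of 13019 tested genes were called, 6.27% lower and 8.46% higher. At an unadjusted p of 0.05 by limma, 29 were lower and 0 higher, where 4031 of the 13019 passed in either direction. The difference was negative in 38 of the 39, where 52.5% of all tested genes were positive. Cdc20 was at 0.0034, with a sign that turns under another scaling. The median difference was -0.24 over the 39, against 0.02 over all genes. The 16 were made up of 12 genes that had risen at passage 1 (Ccnb1, Plk1, Bub1b, Cenpf, Kif11, Tpx2, Nusap1, Kif23, Ect2, Prc1, Ube2c and Pttg1) and 4 that had fallen at passage 6 (Cdk1, Cenpa, Kif2c and Hmmr). The other 6 genes that rose at passage 1, Cdc25b, Bub1, Kif4, Anln, Espl1 and Top2a, were not called in the difference.

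Cyclin B1 and Polo-like kinase 1 differed most between the passages, with differences in log2 change of -0.53 ± 0.10 for Ccnb1 and -0.51 ± 0.09 for Plk1 (SE, limma adjusted p = 0.00625 and 0.00477). Pttg1 followed at -0.49 ± 0.14 (limma adjusted p = 0.0350), then Cenpa at -0.46 ± 0.10 (limma adjusted p = 0.0106), Cdk1 at -0.45 ± 0.13 (limma adjusted p = 0.0317) and Kif23 at -0.42 ± 0.09 (limma adjusted p = 0.0108). In Anln the changes at the passages did not differ past the test (-0.04 ± 0.09, limma adjusted p = 0.771), nor did they in Mki67 (-0.0043 ± 0.10) or Racgap1 (-0.13 ± 0.06). Of the 16, 9 were called whichever library was left out (Ccnb1, Plk1, Bub1b, Cenpa, Kif2c, Tpx2, Nusap1, Hmmr and Kif23). The count was 9 without passage 1 control 3 and 25 without passage 1 experimental library 3. It was 7 without passage 6 experimental libraries 2 and 3 together, and 6 without passage 1 control 1 and experimental library 4 together. Over all tested genes, 1187 were called without passage 1 control 3, against 1918 with all libraries. Without passage 1 control 1 and experimental library 4 together, 843 were. With each library left out in turn, the number over all genes ran from 1164 to 2552. All 16 members were also called under each of the 3 scalings.

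**Figure D4:**
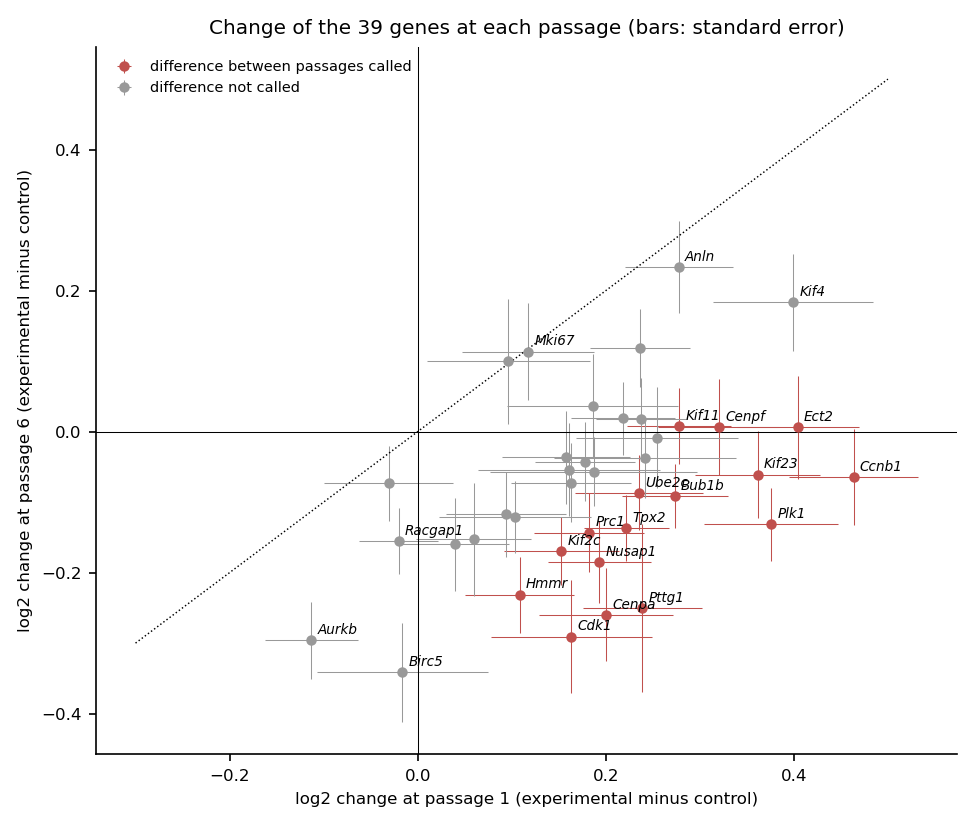
Log2 change of each of the 39 genes, experimental minus control, at passage 1 (horizontal axis) and passage 6 (vertical axis), with standard errors as bars, a dotted line of equal change and red for the 16 genes whose difference between passages was called. Nearly all points lie right of 0 and below the dotted line, Ccnb1 farthest to the right, and Anln and Mki67 lie close to the line.

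The experimental libraries did not carry the change evenly. The median difference of the 39 genes from the control mean was 0.23, 0.29, 0.07 and 0.20 log2 units in passage 1 experimental libraries 1 to 4, against -0.04, -0.05, -0.06 and -0.05 over all tested genes. Each control, set against the other controls, had a median between -0.02 and 0.00. Library 3 was the lowest of the 4 for 31 of the 39 genes and library 2 the highest for 26. Even in library 3, 23 of the 39 were above all controls and 11 below, where 33.2% of all genes were above and 50.1% below, while in libraries 1, 2 and 4 there were 34, 36 and 34 above. Library 3 is also the library with the lowest colon marker sum (8.25 FPKM) and the lowest mitochondrial share of FPKM (12.3%) of passage 1, and the part of these in its values was not tested. At passage 6 the medians were -0.05, -0.11 and -0.07 in experimental libraries 1 to 3, against -0.02, -0.06 and -0.02 over all genes, and library 2 was the lowest of the 3 for 22 genes. Mitochondrial transcripts made up 12.3% to 14.7% of FPKM in the experimental and 14.5% to 14.8% in the control libraries at passage 1, and 25.0% to 26.8% and 27.1% to 27.4% at passage 6.

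**Figure D5:**
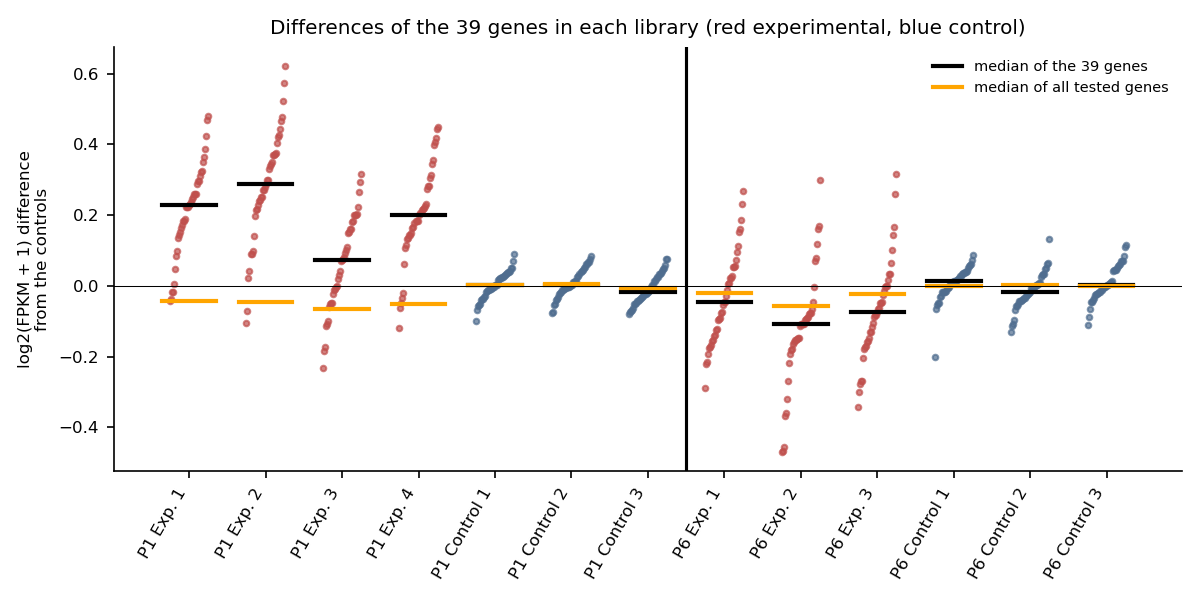
Differences of the 39 genes (points, sorted within a library) in log2(FPKM + 1) from the mean of the controls of the same passage, for each library, experimental (red) left of control (blue), with the median of the 39 genes (black bar) and of all tested genes (orange bar). A control is set against the mean of the other controls. The black bars of the passage 1 experimental libraries lie at 0.07 to 0.29, above their orange bars, and those of passage 6 lie at -0.05 to -0.11.

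Set against the promoter letters, 14 of the 23 genes with CHR letters within 50 bases of the start rose at passage 1. So did 3 of the 10 with a window and none there, where 11.5% of all tested genes were called higher. Aurka, Kif11 and Kif23 of the 23, and Kif2c and Mad2l1 of the 10, have windows that matched no transcript. Tpx2, which has no window, rose too. The median log2 changes at passage 1 were 0.22 with and 0.16 without CHR letters there, and those of the difference between passages were -0.24 and -0.27. The genes without CHR letters near the start include both Ccnb1, which rose most, and Birc5, which fell most at passage 6, and no test was made between these groups.

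Other genes of the cell cycle were counted in 10 lists of 208 genes that hold none of the 39. In the 7 lists on mitosis and its regulators, 145 genes were tested, of which 38 rose and 8 fell at passage 1, 5 rose and 20 fell at passage 6, and 1 was higher and 27 lower in the difference. The shares of all tested genes against which these counts and those of each list are set are 11.5% higher and 18.9% lower at passage 1, 8.98% higher and 10.8% lower at passage 6, and 8.46% higher and 6.27% lower in the difference, so that the falls of the 145 at passage 6 were near the share of all genes. Their median log2 changes were 0.08 at passage 1 and -0.03 at passage 6.

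Among 16 regulators of mitotic entry, 6 rose and 0 fell at passage 1. The largest rises were in Cks1b (a CDK-binding subunit; 72.2 against 56.6 FPKM), Wee1 (the kinase that holds CDK1 inactive; 18.8 against 14.6 FPKM) and Melk (a kinase of dividing cells; 15.8 against 12.6 FPKM), given as mean FPKM of the experimental against the control libraries. At passage 6, 1 fell, Fbxo5 (the APC/C inhibitor EMI1; 28.8 against 39.03 FPKM), with limma adjusted p = 0.00378, and it was called whichever library was left out. Among 14 subunits of MuvB, DREAM and NF-Y, 4 rose and 0 fell at passage 1. They included Nfya (the NF-Y subunit that reads CCAAT; 9.53 against 6.74 FPKM), Lin54 (the MuvB subunit that reads the CHR; 7.19 against 5.54 FPKM) and Lin9 (a MuvB scaffold; 6.11 against 4.81 FPKM). At passage 6 the list had 2 that fell, Tfdp1 (the partner of E2F factors; 54.8 against 68.9 FPKM) and Nfyb (another NF-Y subunit; 5.67 against 7.06 FPKM), and 5 were lower in the difference, among them Nfya (-0.65 ± 0.13, limma adjusted p = 0.00628) and Lin54 (-0.40 ± 0.07, limma adjusted p = 0.00481).

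In the APC/C list, 1 of 16 genes rose and 5 fell at passage 1. The APC/C subunits Anapc11 (the RING subunit; 7.94 against 10.2 FPKM) and Anapc16 (a small subunit; 15.2 against 18.5 FPKM) fell, while Ube2s (the enzyme that lengthens its ubiquitin chains; 36.7 against 31.3 FPKM) rose. At passage 6, Anapc15 (a subunit needed to release the checkpoint; 5.84 against 7.63 FPKM) and Cdc27 (a scaffold subunit; 12.5 against 15.4 FPKM) fell and Anapc5 (a scaffold subunit; 56.6 against 48.7 FPKM) rose. Of 20 condensin and cohesin genes, 8 rose and 0 fell at passage 1, with the largest rises in Rad21 (the cohesin subunit that separase cuts; 112 against 86.6 FPKM), Smc4 (a condensin subunit; 69.6 against 54.0 FPKM) and Sgo2a (a shugoshin, which protects cohesin; 8.21 against 6.33 FPKM). At passage 6 the list had 1 higher and 3 lower, Ncapg (condensin I; 8.48 against 11.4 FPKM), Cdca5 (sororin, which stabilizes cohesin; 6.52 against 8.83 FPKM) and Ncapd3 (condensin II; 8.30 against 10.3 FPKM).

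The kinetochore and checkpoint list, of 34 genes, had 3 higher and 1 lower at passage 1 (11.5% and 18.9% of all tested genes), and 0 higher and 8 lower at passage 6 (8.98% and 10.8%). At passage 1 Bub3 (the partner of BUB1 and BUBR1; 26.8 against 21.9 FPKM) and Cenpl (an inner kinetochore protein; 1.93 against 1.42 FPKM) rose and Kntc1 (a subunit of the RZZ complex; 4.45 against 5.45 FPKM) fell. At passage 6 the largest falls were in Spc24 (NDC80 complex; 6.71 against 9.10 FPKM), Ska1 (microtubule attachment; 4.37 against 5.88 FPKM) and Dsn1 (MIS12 complex; 7.83 against 10.1 FPKM). Of 31 spindle and centrosome genes, 9 rose and 2 fell at passage 1, led by Kif14 (a kinesin of cytokinesis; 3.38 against 2.27 FPKM), Aspm (a spindle pole protein; 6.23 against 4.40 FPKM) and Fam83d (a spindle protein; 9.21 against 6.73 FPKM), and 2 rose and 3 fell at passage 6, including Psrc1 (a spindle protein; 2.47 against 1.87 FPKM), which rose, and Ckap2 (a microtubule-associated protein; 14.7 against 18.0 FPKM) and Spag5 (the spindle protein astrin; 13.1 against 15.5 FPKM), which fell. In the cytokinesis list, 7 of 14 rose and 0 fell at passage 1. They included Myh9 (non-muscle myosin heavy chain IIA; 80.0 against 54.3 FPKM), Cep55 (a midbody protein; 16.5 against 12.2 FPKM) and Arhgap11a (a GTPase-activating protein; 24.8 against 18.7 FPKM). Myh9 was higher at passage 6 too (83.2 against 62.7 FPKM; log2 change 0.40 ± 0.04 (SE), limma adjusted p = 0.00256), whereas Arhgap11a fell (13.2 against 16.1 FPKM) and had a difference between passages of -0.66 ± 0.09 (limma adjusted p = 0.00109).

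Genes of the earlier cycle phases were counted in the same way. Of 30 S phase genes, 0 rose and 2 fell at passage 1 (11.5% and 18.9% of all tested genes), the replication factor C subunits Rfc2 (10.0 against 12.8 FPKM) and Rfc4 (14.3 against 18.1 FPKM), 2 rose and 3 fell at passage 6, near the shares of all genes (8.98% and 10.8%), and 0 were called in the difference by limma. At an unadjusted p of 0.05 by limma, 0 were higher and 3 lower at passage 1, where 5363 of 12469 tested genes passed in either direction. By the same measure 4 were higher and 8 lower at passage 6 (4540 of 12458 genes), and 0 higher and 1 lower in the difference (4031 of 13019). At passage 6 Mcm2 (a subunit of the replicative helicase; 29.8 against 24.9 FPKM) rose, and Rfc5 (13.3 against 16.4 FPKM) and Rfc3 (10.4 against 12.1 FPKM) fell. Of 12 tested G1 cyclin, kinase and E2F genes, 2 rose and 1 fell at passage 1, the repressors E2f8 (11.2 against 8.66 FPKM) and E2f7 (8.20 against 6.91 FPKM), which rose, and Ccnd3 (cyclin D3; 3.79 against 5.18 FPKM), which fell, and at passage 6 0 rose and 3 fell, Cdk2 (the partner kinase of cyclins E and A; 8.29 against 10.5 FPKM), E2f3 (9.43 against 11.7 FPKM) and E2f2 (11.1 against 12.7 FPKM). Of 16 tested CDK inhibitors and arrest genes, 5 rose and 2 fell at passage 1 (11.5% and 18.9% of all tested genes), and 0 rose and 4 fell at passage 6 (8.98% and 10.8%). Ccng2, an atypical cyclin linked to arrest, was at 4.25 against 2.47 FPKM at passage 1 and 1.94 against 2.71 FPKM at passage 6, higher and lower past the test, and differed between the passages by -0.91 ± 0.21 (limma adjusted p = 0.0149). Btg2 (an antiproliferative factor; 8.23 against 5.38 FPKM) rose and Ccng1 (a p53 target; 6.71 against 9.09 FPKM) fell at passage 1, and Btg1 (an antiproliferative factor; 4.10 against 6.87 FPKM) and Sesn1 (a p53 target; 5.39 against 6.83 FPKM) fell at passage 6. Cdkn1a, the p53 target p21 that stops CDKs, had 24.4, 20.5, 34.1 and 29.9 FPKM in the experimental libraries, against 27.9, 28.5 and 27.0 FPKM in the controls, and the groups overlapped (limma adjusted p = 0.809). At passage 6 Cdkn1a was at 16.4 against 16.6 FPKM (limma adjusted p = 0.832). Over the 10 lists, 17 of the 45 rises and 4 of the 13 falls at passage 1, and 1 of the 7 rises and 3 of the 30 falls at passage 6, were called whichever library was left out.

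Some members share exon bases with another gene, and the libraries kept the strand, but whether the counting used it is not given in the sources used here. Those with a gene on the other strand are Ccna2, Cdc25b, Cdc25c, Plk1, Kif4, Nusap1, Kif20a, Prc1, Cdc20 and Ube2c. Reads of the partner cannot be told apart in their values if strand was not used. Foxm1 and Top2a share exon bases with a gene on the same strand, where strand does not separate the reads, whether it was used or not.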

How the data were processed

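RNA of Neuro2a cells was analysed from 13 libraries in 4 groups (passage 1, 4 experimental and 3 control; passage 6, 3 experimental and 3 control). Values are FPKM per gene as deposited by the authors, with a separate table for each passage. The genome build mm10 and the tools StringTie, HISAT2, cutadapt, edgeR and DESeq2 are named, per the submitters' processing notes; their versions and roles are not given in the sources used here. Per the labels' protocols, libraries were made from poly(A) RNA with strand-marking dUTP; the FPKM tables hold no read counts, so depth and counting error are unknown.

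The 39 genes, the other lists, the markers and the tests were chosen with earlier results of these data known. Values were changed to log2(FPKM + 1). A gene was tested at a passage if 3 or more of its libraries reached 1 FPKM, each passage by itself, with limma 3.58.1 (trend, two-sided) in R 4.3.3, and p-values were adjusted by Benjamini-Hochberg over all tested genes (threshold 0.05). The difference between passages is the experimental minus control change at passage 6 minus that at passage 1, over 13 libraries, with genes that passed the filter in at least 1 table. The fit within each passage was tested on simulated data with independent noise. The difference between passages and the alternatives were not simulated. A count was read against the share of all tested genes called. Of 34857 identifiers, 1 had an empty cell and was left out.

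Values in every library are given for the 6 called genes with the largest change at each passage and in the difference, the highest gene of each role, and Ccnb1, Cdk1 and Mki67. In each other list the 3 called genes with the largest changes at each passage are named. Alternatives were other pseudocounts (0.1 and 5 FPKM), filters and scalings, no trend, array weights, a replicate block and libraries left out. Promoter windows are from RefSeq (GRCm38.p6), and annotation is from GENCODE M21. Protein motifs were not analysed here. Python 3.11.15, numpy 2.4.6, pandas 2.3.3, scipy 1.17.1 and matplotlib 3.10.9 were used.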

Additional observations from a re-analysis of the deposited data

Results flagged for a closer look

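The experimental change differed between the passages, by the test of the difference itself (limma, over all 13 libraries), in 16 of the 39 genes. The differences in log2 change, passage 6 minus passage 1, were -0.53 in Ccnb1, -0.51 in Plk1, -0.49 in Pttg1, -0.46 in Cenpa, -0.45 in Cdk1, -0.42 in Kif23, -0.40 in Ect2, -0.38 in Nusap1, -0.36 in Bub1b, -0.36 in Tpx2, -0.34 in Hmmr, -0.33 in Prc1, -0.32 in Kif2c, -0.32 in Ube2c, -0.31 in Cenpf and -0.27 in Kif11. All 16 were lower at passage 6. In 12 of them the passage 1 change was a called rise and in the other 4 the passage 6 change was a called fall.

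A single library lay far from the rest of its group in 2 of the 42 groups of 4 values checked, and chance alone gives about 1 in 20. Ccnb2 was at 26.3 FPKM in passage 1 experimental library 3, against 31.1, 30.8 and 30.5 FPKM in the other experimental libraries. Cit was at 2.56 FPKM in passage 1 experimental library 4, against 2.91, 2.92 and 2.98 FPKM in the others.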

How the results depend on the processing

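No called change of a single member turned its sign under the alternatives run, while genes without a call turned theirs in 10 comparisons at passage 1, 28 at passage 6 and 21 in the difference. Over all genes, the calls were mostly lower as deposited (37.8% higher at passage 1, 45.5% at passage 6) and mostly higher with median-of-ratios scaling (52.1% and 55.6%). With the replicate number as a block, 5 of the 39 genes were called at passage 1 (18 without the block), 2 at passage 6 (7) and 6 in the difference (16), and over all genes 1813, 1438 and 728 (3792, 2462 and 1918). The labels do not say that the numbers pair libraries, same-numbered libraries did not deviate together (correlations 0.166, -0.192 and 0.239 at passage 1, -0.0664, -0.06 and 0.0332 at passage 6), and not every library correlated best with its own number.

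Without a filter on low values, which tests more genes, 1 member was called at passage 6 and 10 in the difference, and 1286 and 1185 genes in all. Without the trend 4 members were called at passage 6. With array weights 11 members were called at passage 6, and 25 in the difference, where 3192 genes were called in all. The counts over all genes at passage 6 without the trend and with array weights are not given here. The member counts of those fits therefore cannot be set against them. The median change of the members at passage 6 was -0.038 with median-of-ratios scaling, against -0.072. Without passage 1 control 1 and experimental library 4 together, 1029 genes and 2 members were called at passage 1, and 843 and 6 in the difference; without passage 6 experimental libraries 2 and 3, 7 members were called in the difference. With each library left out in turn, calls at passage 1 ran from 2173 to 4058 genes and 11 to 29 members, those at passage 6 from 723 to 4296 genes and 0 to 11 members, and those of the difference from 1164 to 2552 genes and 9 to 25 members. The causes were not tested. The medians of the members ran from 0.15 to 0.24 at passage 1 and from -0.10 to -0.05 at passage 6. Over all members and alternatives, called members kept their call in 256 comparisons and lost it in 68 at passage 1, in 68 and 51 at passage 6, and in 318 and 82 in the difference. Members without a call gained one in 35, 12 and 29 comparisons. With 3 or 4 libraries a group and no read counts, small changes in the lowest genes could not be resolved.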
